A study of Homo sapiens and Homo sapiens
Mus musculus and Mus musculus with 200 samples.

Results

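TWIST1(NEUROG2loop) and TWIST1(NEUROG2ins) are V5-tagged forms of the bHLH factor TWIST1 whose labels name the loop of NEUROG2. Their 4 V5 peak lists, 1 per construct with and 1 without ALX4-Flag, were chosen by sample label from the 200 ChIP-seq samples of the series. All were made in HEK293, an established human embryonic kidney line of genotype WT, harvested 24 h after transfection with pcDNA3.1 plasmids. The groups were TWIST1(NEUROG2loop) alone, TWIST1(NEUROG2ins) alone, and each of these with ALX4-Flag. The 6 lists of TWIST1(WT) in the same cells, 3 without and 3 with ALX4-Flag, served as reference, and lists of 6 other loop constructs gave a further comparison. The labels do not say which residues were exchanged in the loop form or added in the ins form, nor how much of each protein the cells made. Each construct had 1 list per condition, so its differences have no replicate check, and the intervals given cover counting error only.

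As background, bHLH factors bind DNA as dimers at E-boxes, and a loop joins the helices of the domain. TWIST1 is known for its role in facial and limb mesenchyme, where it binds composite sequences that join an E-box to a site for a homeodomain factor such as ALX4. NEUROG2 is a proneural bHLH factor of the developing nervous system, and its loop differs from that of TWIST1. The constructs bear on the question of whether the loop matters for how ALX4 changes the sites that TWIST1 occupies.

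The composite motif was an E-box and a homeodomain site 4 bp apart, in either order on either strand. The E-box was CAGATG (which reads CATCTG on the other strand), the palindrome CAGCTG or the palindrome CATATG. The homeodomain site was the palindrome TAATTA or the word TAATTG (which reads CAATTA on the other strand). The stretches below, hg38 sequence of 40 bases read with the E-box first, show the motif in sites that both NEUROG2 constructs gained with ALX4-Flag. Capitals mark the E-box and the homeodomain site.
LGI1 site, chr10:93816341-93816380, plus strand: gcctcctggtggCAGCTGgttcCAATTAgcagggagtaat
RAI14 site, chr5:34604262-34604301, plus strand: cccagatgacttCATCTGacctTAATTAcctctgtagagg
SV2B site, chr15:91247644-91247683, minus strand: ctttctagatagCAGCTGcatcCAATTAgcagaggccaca
CLK1 site, chr2:200867095-200867134, minus strand: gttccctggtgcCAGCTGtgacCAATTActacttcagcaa

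The next stretches show the motif in sites that all 3 TWIST1(WT) lists gained and neither NEUROG2 construct had with ALX4-Flag.
MAP3K7 site, chr6:91183970-91184009, minus strand: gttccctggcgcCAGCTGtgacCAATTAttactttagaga
SDK1 site, chr7:3212784-3212823, minus strand: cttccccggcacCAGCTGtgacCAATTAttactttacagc
BACH1 site, chr21:29193186-29193225, minus strand: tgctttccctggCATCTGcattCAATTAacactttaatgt

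Identity between these stretches was high for some pairs from the 2 sets. The CLK1 and MAP3K7 stretches shared 35 of 40 bases, as did MAP3K7 and SDK1, and CLK1 and SDK1 shared 30. The 16 bases from E-box to homeodomain site were the same in CLK1, MAP3K7 and SDK1.

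The double E-box, a pair of E-boxes of the same 4 words 5 bp apart, was also counted, and 3 examples show it in capitals. MRPL34 and WNT10A are among the strongest such sites of both constructs with ALX4-Flag, and PXYLP1 among the strongest gained in both. These 3 were chosen after their values were seen.
MRPL34 site, chr19:17305458-17305498, plus strand: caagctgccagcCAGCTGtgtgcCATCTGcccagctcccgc
WNT10A site, chr2:218898340-218898380, plus strand: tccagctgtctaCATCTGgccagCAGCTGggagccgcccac
PXYLP1 site, chr3:141229327-141229367, plus strand: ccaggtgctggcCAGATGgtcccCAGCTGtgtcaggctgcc

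The lists held 46631 peaks for TWIST1(NEUROG2loop) without and 40743 with ALX4-Flag, and 47958 and 46682 for TWIST1(NEUROG2ins). TWIST1(WT) lists held 22465 to 56014 peaks without and 29430 to 65005 with ALX4-Flag, and read depth is not known from a list. In cells given pUC19, a plasmid without the tag, the V5 list had 463 peaks, which overlapped 0.506% to 0.756% of the peaks of a NEUROG2 list. Peaks lay on 3 of the 4 coding exons of ALX4 in both NEUROG2 lists with ALX4-Flag and on 1 of 4 in both without it. In TWIST1(WT), 1, 2 and 3 of these exons had a peak with ALX4-Flag and 1, 0 and 1 without. The list of TWIST1(NEUROG2loop) without ALX4-Flag stood apart. It had 12.4% of its peaks on chromosome 6, against 6.49% to 10.4% in the other 9 lists. Its share of peaks with an E-box was 43.5%, against 47.2% to 53.8% in the 4 other lists without ALX4-Flag. Loop differences and gained-site shares are therefore also given with the TWIST1(NEUROG2ins) list without ALX4-Flag in its place, a choice made after the data were seen.

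Both constructs had more composite-motif peaks with ALX4-Flag than without, and both stayed far below TWIST1(WT) with ALX4-Flag. In TWIST1(NEUROG2loop), 31 peaks held the motif within 100 bp of the summit without ALX4-Flag, a share of 0.0665% (Wilson 95% interval 0.0468% to 0.0943%). With ALX4-Flag 61 did, a share of 0.150% (0.117% to 0.192%). In TWIST1(NEUROG2ins), 24 peaks without ALX4-Flag gave 0.0500% (0.0336% to 0.0745%), and 130 with it gave 0.278% (0.235% to 0.330%). The TWIST1(WT) lists gave 0.190%, 0.178% and 0.152% without ALX4-Flag and 0.860%, 1.02% and 0.758% with it. Neither NEUROG2 list with ALX4-Flag reached the lowest TWIST1(WT) list with ALX4-Flag. The loop list with ALX4-Flag, at 0.150%, was close to the lowest TWIST1(WT) list without it, at 0.152%. Its interval held every TWIST1(WT) value without ALX4-Flag. In windows 1000 bp to either side of the summits, 0.0344% to 0.0448% of windows of the NEUROG2 lists held the motif.

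The difference with against without ALX4-Flag was 0.0832 percentage points for TWIST1(NEUROG2loop) (95% interval 0.0400 to 0.130) and 0.228 for TWIST1(NEUROG2ins) (0.178 to 0.283). The loop value was 0.0997 against the TWIST1(NEUROG2ins) list without ALX4-Flag. For TWIST1(WT) the means were 0.879% ± 0.132 (SD, n = 3) and 0.173% ± 0.0197 (SD, n = 3), a difference of 0.706 percentage points. Every TWIST1(WT) list with ALX4-Flag was above every list without it, by 0.568 to 0.868 points. The exact two-sided permutation test gave p = 0.10, the smallest that 3 against 3 lists allow, and 0.136 after Benjamini-Hochberg adjustment over 19 measures. With ALX4-Flag, TWIST1(NEUROG2ins) exceeded TWIST1(NEUROG2loop) by 0.129 percentage points (95% interval 0.0677 to 0.190).

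**Figure D1:**
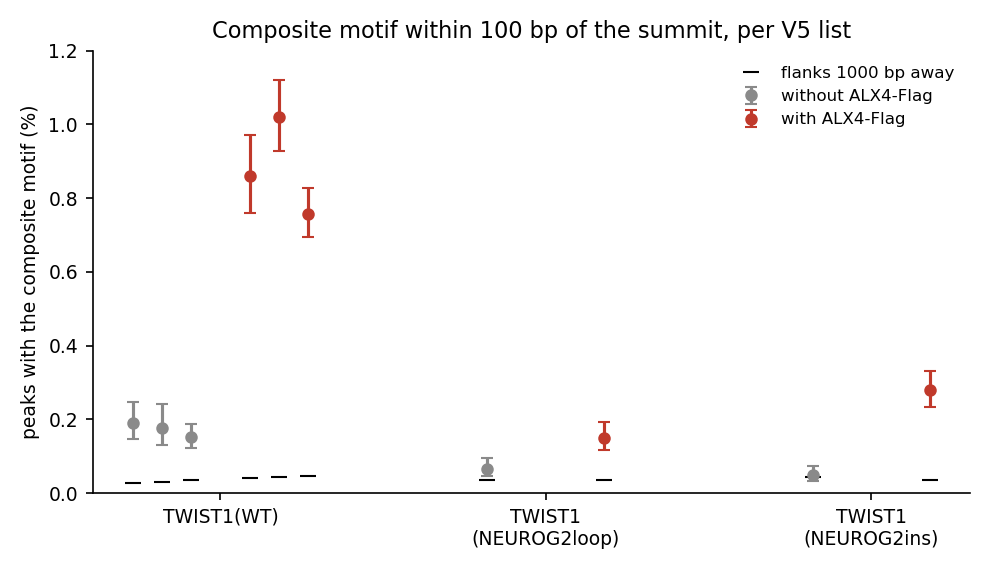
Share of peaks with the composite motif (%), 1 point per V5 list with its Wilson 95% interval, grey without and red with ALX4-Flag; black dashes are the share in windows 1000 bp from the summits. The 3 TWIST1(WT) lists with ALX4-Flag lie between 0.758% and 1.02%, above 0.150% for TWIST1(NEUROG2loop) and 0.278% for TWIST1(NEUROG2ins).

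The strongest peaks of the constructs showed the same order. Among the 2000 peaks with the highest −log10 q, the composite motif was in 1 without and 6 with ALX4-Flag for TWIST1(NEUROG2loop), and in 1 and 13 for TWIST1(NEUROG2ins). The TWIST1(WT) lists had 12, 8 and 13 such peaks without and 66, 77 and 62 with ALX4-Flag. By the authors' fold enrichment, the median composite-motif peak of TWIST1(NEUROG2loop) sat at percentile 37.9 of its list without and 64.3 with ALX4-Flag. In TWIST1(NEUROG2ins) these percentiles were 59.5 and 61.2, and in TWIST1(WT) 55.8 to 81.3 without and 72.4 to 83.7 with ALX4-Flag. Composite-motif peaks were thus placed lower in the NEUROG2 lists than in the 3 TWIST1(WT) lists with ALX4-Flag.

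The 4 bp gap stood out among the 21 gaps from 0 to 20 bp only in some lists. In TWIST1(NEUROG2ins) with ALX4-Flag, the share at the summit was 7.65 times the share in the flanks, and the highest other gap gave 3.27 times. Without ALX4-Flag its 4 bp ratio was 1.12 and ranked 9 of 21, with the highest ratio, 2.00, at 16 bp. In TWIST1(NEUROG2loop) with ALX4-Flag the 4 bp ratio was 4.36, and the 6 bp gap followed at 4.00, with 61 and 36 peaks. Without ALX4-Flag the loop ratio was 1.82 and the next highest 1.50. The TWIST1(WT) lists had 4 bp ratios of 16.2 to 22.8 with ALX4-Flag, where other gaps reached 3.46 to 5.41, and of 4.36 to 6.82 without. The loop list with ALX4-Flag therefore had a 4 bp ratio at the low end of the TWIST1(WT) lists without ALX4-Flag.

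**Figure D2:**
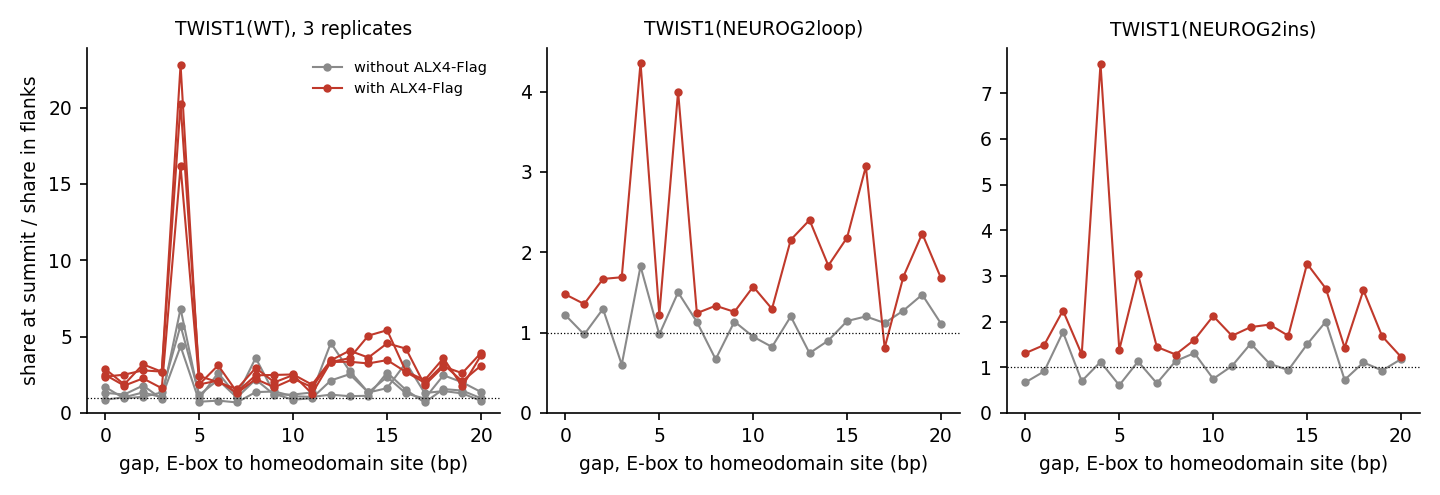
Ratio of the share of summit windows to the share of flank windows with an E-box and a homeodomain site, by the gap between them (bp), 1 line per V5 list, grey without and red with ALX4-Flag; the vertical scales differ between panels and the dotted line marks a ratio of 1. The 4 bp peak reaches 22.8 in TWIST1(WT), 7.65 in TWIST1(NEUROG2ins) and 4.36 in TWIST1(NEUROG2loop), where 6 bp is nearly as high.

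With ALX4-Flag, TAATTA or TAATTG lay in 8.47% of peaks of TWIST1(NEUROG2loop), against 8.27% without, a difference of 0.196 percentage points (95% interval -0.171 to 0.565). Against the ins list without ALX4-Flag the loop difference was 2.15 points (1.81 to 2.50), so its size turns on the list that stood apart, and among the 10000 strongest peaks it was 1.38. In TWIST1(NEUROG2ins) the shares were 9.88% and 6.31%, a difference of 3.57 points (3.22 to 3.91). TWIST1(WT) had 19.3%, 19.1% and 16.97% with and 7.59%, 7.18% and 6.07% without ALX4-Flag, with no overlap (exact permutation p = 0.10, adjusted 0.136). The flanks of the NEUROG2 lists held such a site in 13.9% to 15.4% of windows. Summits of both constructs thus had fewer homeodomain sites than their flanks, with and without ALX4-Flag. So did the 3 TWIST1(WT) lists without ALX4-Flag (flanks 12.65% to 13.16%) and every list of the 6 other loop constructs. The 3 TWIST1(WT) lists with ALX4-Flag had more at summits (flanks 15.7% to 15.9%).

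The double E-box was more frequent with than without ALX4-Flag in both NEUROG2 constructs, and less frequent in every TWIST1(WT) list with ALX4-Flag than in every one without. In TWIST1(NEUROG2loop) 170 peaks (0.365%) without and 348 (0.854%) with ALX4-Flag held it, a difference of 0.490 percentage points (95% interval 0.386 to 0.597), or 0.266 (0.154 to 0.380) against the ins list without ALX4-Flag. In TWIST1(NEUROG2ins) it was in 282 (0.588%) and 331 (0.709%), a difference of 0.121 points (0.0187 to 0.224). The TWIST1(WT) lists had 0.968%, 1.197% and 0.930% without and 0.251%, 0.302% and 0.285% with ALX4-Flag, which do not overlap (exact permutation p = 0.10, adjusted 0.136). The loop list with ALX4-Flag was above both NEUROG2 lists without it, so its direction does not rest on the list that stood apart. Flank windows of the NEUROG2 lists held a double E-box in 0.0368% to 0.0573%.

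Double E-box sites in both NEUROG2 lists with ALX4-Flag numbered 248. Of these, 143 were in all 3 TWIST1(WT) lists without ALX4-Flag and 61 in all 3 with it. Of the 16900 sites in all 4 NEUROG2 lists, with or without a double E-box, 53.7% and 44.7% were. The share over all sites in both lists with ALX4-Flag was not counted. The MRPL34 site lay in an intron annotated to ABHD8 and MRPL34, 366 bp upstream of the nearest start of this mitochondrial ribosomal protein gene. It had the authors' fold enrichments of 63.6 in TWIST1(NEUROG2loop) and 51.2 in TWIST1(NEUROG2ins) with ALX4-Flag. WNT10A encodes a Wnt ligand, and its site, in an intron of the gene, had 59.3 and 38.0. Both sites also had a peak in the NEUROG2 lists without ALX4-Flag, with 16.56 (loop) and 25.75 (ins) at MRPL34 and 15.1 and 19.89 at WNT10A. Every TWIST1(WT) list had a peak at both sites. The PXYLP1 site, in an intron of this phosphatase gene 602 bp downstream of its start, was listed in both constructs with ALX4-Flag (13.6 and 15.5) and in neither without. In TWIST1(WT) it was in all 3 lists without ALX4-Flag (15.2, 15.8 and 30.7) and in none with it.

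**Figure D3:**
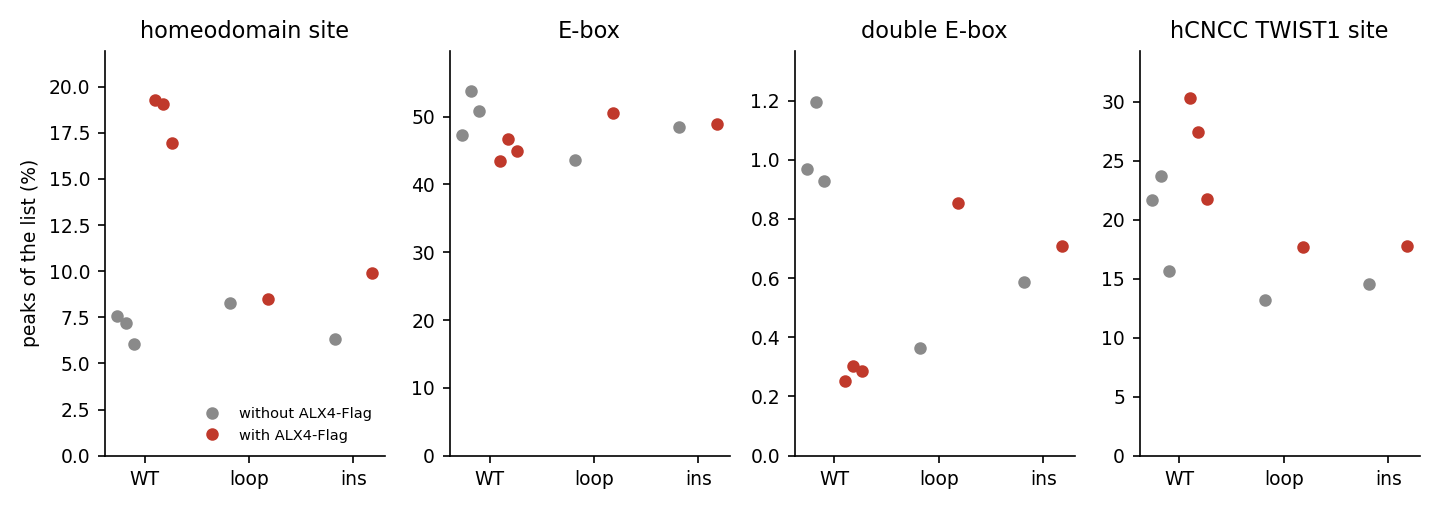
Share of peaks (%) with a homeodomain site, an E-box, a double E-box, or overlapping a TWIST1 site of human cranial neural crest cells (hCNCC), 1 point per V5 list, grey without and red with ALX4-Flag. The double E-box is 0.930% or more without and 0.302% or less with ALX4-Flag in TWIST1(WT), and is 0.854% with against 0.365% without ALX4-Flag in TWIST1(NEUROG2loop).

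An E-box of the 4 words was in 50.5% of TWIST1(NEUROG2loop) peaks with and 43.5% without ALX4-Flag, and in 48.9% and 48.4% of TWIST1(NEUROG2ins) peaks. The differences were 7.01 percentage points for loop (95% interval 6.35 to 7.67), or 2.11 (1.45 to 2.77) against the ins list without ALX4-Flag, and 0.441 for ins (-0.196 to 1.08). TWIST1(WT) had 43.4% to 46.6% with and 47.2% to 53.8% without ALX4-Flag. The words used among the 2000 strongest peaks differed between constructs. CACATG, outside the 4 words above, was in 43.5% of the strongest TWIST1(NEUROG2loop) peaks with ALX4-Flag, against 23.1% to 24.2% in TWIST1(WT) with and 31.1% to 36.0% without it. It was in 35.25% of the ins peaks with ALX4-Flag, and in 35.15% (loop) and 38.65% (ins) without it. CACGTG, also outside the 4 words, was in 14.4% (loop) and 13.45% (ins) with and 9.75% and 13.8% without ALX4-Flag. TWIST1(WT) had CACGTG in 4.85% to 5.7% with and 8.7% to 12.6% without it. CAGATG was in 47.0% of the loop peaks with ALX4-Flag, in 45.6% of the ins peaks, and in 40.4% to 42.6% of those of TWIST1(WT) with and 49.5% to 54.5% without it. CATATG was in 12.5% of the loop peaks with ALX4-Flag, the highest of the 10 lists, where TWIST1(NEUROG2ins) had 8.15% and TWIST1(WT) with ALX4-Flag 7.1% to 7.3%. Its flank share in the loop list was 4.22%.

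Among the strongest peaks, both constructs with ALX4-Flag shared more sites with TWIST1(WT) alone than with TWIST1(WT) and ALX4-Flag, which did not hold over full lists. Of the 10000 strongest TWIST1(NEUROG2loop) peaks with ALX4-Flag, 48.4% to 54.4% were overlapped by the 10000 strongest peaks of a TWIST1(WT) list without ALX4-Flag. The TWIST1(WT) lists with ALX4-Flag overlapped 28.4% to 36.2%. For TWIST1(NEUROG2ins) with ALX4-Flag the ranges were 53.2% to 58.9% and 32.8% to 42.1%. TWIST1(WT) lists with ALX4-Flag were themselves overlapped by those without in 28.5% to 37.4%, and replicates of 1 condition overlapped in 52.7% to 67.9%. Over full lists, whose lengths differ, the loop list with ALX4-Flag was overlapped in 41.1% to 67.5% by TWIST1(WT) lists without and 35.3% to 63.0% by those with ALX4-Flag. The ins list gave 36.8% to 64.4% and 35.1% to 64.0%.

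With ALX4-Flag, TWIST1(NEUROG2ins) overlapped 59.5% of the strongest loop peaks and the reverse share was 60.0%, where TWIST1(WT) replicates with ALX4-Flag gave 59.8% to 67.9%. Without ALX4-Flag these shares were 50.3% and 50.8%, and TWIST1(WT) replicates gave 52.7% to 60.0%. Each construct overlapped its own list without ALX4-Flag in 49.5% (loop) and 53.2% (ins). Over full lists, 68.1% of TWIST1(NEUROG2loop) peaks with ALX4-Flag were overlapped by TWIST1(NEUROG2ins) (95% interval 67.7% to 68.6%), and 60.7% in reverse.

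**Figure D4:**
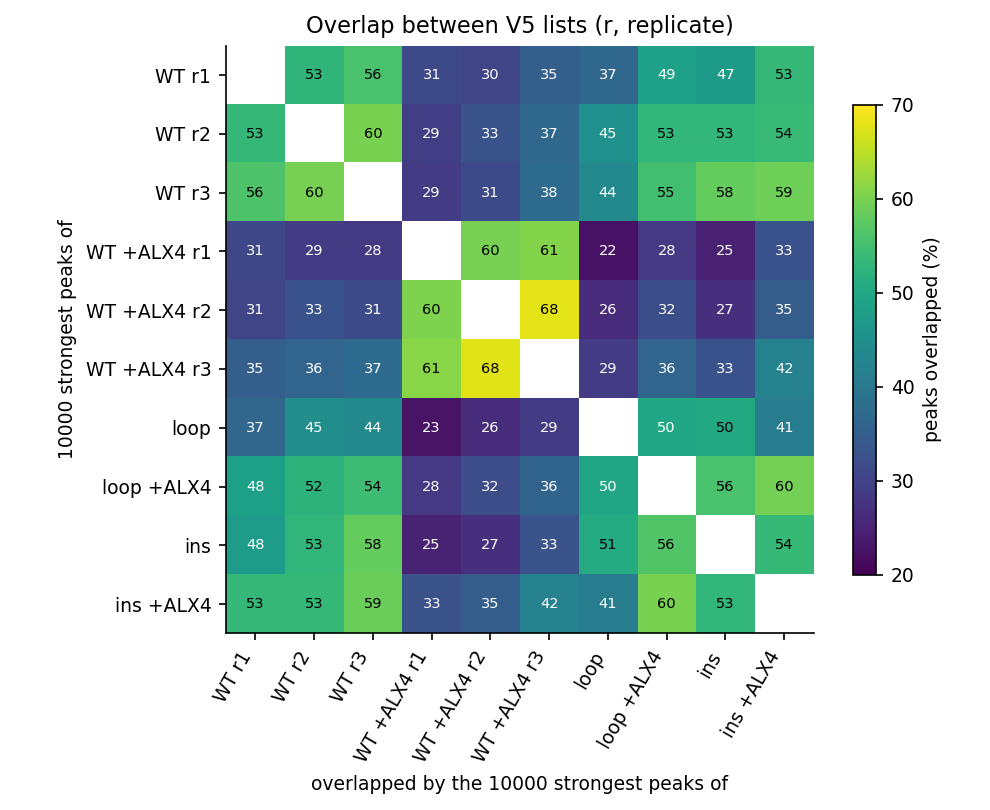
Percentage of the 10000 strongest peaks of each V5 list (rows) overlapped by at least 1 bp by the 10000 strongest of another (columns); loop and ins are the NEUROG2 constructs, r the replicate of TWIST1(WT). Rows loop +ALX4 and ins +ALX4 are higher against WT (48.4% to 58.9%) than against WT +ALX4 (28.4% to 42.1%).

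Sites gained with ALX4-Flag, those with no overlapping peak in the construct's list without it, made up 38.7% of the TWIST1(NEUROG2loop) list (15787 peaks) and 42.6% of the TWIST1(NEUROG2ins) list (19878). Lost sites made up 45.9% (21394) and 43.1% (20676) of the lists without ALX4-Flag. In single pairs of TWIST1(WT) lists, 55.7% to 68.7% of peaks were gained and 42.5% to 61.6% lost. The composite motif was in 35 gained loop sites, 0.222% (95% interval 0.160% to 0.308%), and in 85 gained ins sites, 0.428% (0.346% to 0.528%). Gained TWIST1(WT) sites held it in 0.978%, 1.26% and 1.03%. Lost sites held it in 0.0701% (loop), 0.0339% (ins) and 0.0210% to 0.0533% (TWIST1(WT)).

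Other features of the gained sites also differed from TWIST1(WT). A homeodomain site was in 9.42% of gained loop sites, 12.4% of gained ins sites and 21.1% to 22.6% of gained TWIST1(WT) sites. The double E-box was in 1.21%, 0.714% and 0.113% to 0.137%. Within 1000 bp of a transcription start lay 23.4% of gained loop sites and 19.3% of gained ins sites, against 6.93% to 13.4% in TWIST1(WT). Lost sites were at starts in 6.18% (loop), 7.65% (ins) and 13.7% to 25.1% (TWIST1(WT)), so the promoter share was ordered the other way round. The full lists with ALX4-Flag had 27.4% (loop), 28.1% (ins) and 18.95% to 20.95% (TWIST1(WT)) of peaks at starts. Gained sites were thus less often at starts than their full lists in both constructs and in TWIST1(WT). Loop sites gained against the ins list without ALX4-Flag (14728) held the composite motif in 0.238%, a homeodomain site in 10.8% and a double E-box in 0.957%, with 17.5% at starts.

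The composite-motif peaks that the constructs had with ALX4-Flag were mostly sites of TWIST1(WT) as well. Of the 61 in TWIST1(NEUROG2loop), 44 were in all 3 TWIST1(WT) lists with ALX4-Flag and 1 in no TWIST1(WT) list. Of the 130 in TWIST1(NEUROG2ins), 96 were in all 3 and 7 in none. Many were also in at least 1 TWIST1(WT) list without ALX4-Flag, 48 of the 61 and 79 of the 130. The same shares over all peaks of these lists were not counted. TWIST1 sites of hCNCC, the cell type in which TWIST1 and ALX factors occur together, overlapped 68.9% (loop) and 77.7% (ins) of these composite-motif peaks. That reference was 42318 TWIST1 peaks found in both replicates of unedited hCNCC made from H9 embryonic stem cells. In these motifs CAGATG or its reverse was the E-box in 52.5% (loop) and 46.2% (ins), CAGCTG in 41.0% and 43.1%, and CATATG in 6.56% and 10.8%.

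Overlap with the hCNCC sites was higher with ALX4-Flag in both constructs. It was 17.7% with and 13.2% without in TWIST1(NEUROG2loop), a difference of 4.48 percentage points (95% interval 4.00 to 4.96), or 3.11 against the ins list without ALX4-Flag. In TWIST1(NEUROG2ins) it was 17.7% and 14.6%, a difference of 3.15 points (2.68 to 3.62). TWIST1(WT) had 30.4%, 27.5% and 21.8% with and 21.7%, 23.7% and 15.7% without ALX4-Flag, and these overlap (difference 6.18 points, exact permutation p = 0.20, adjusted 0.238). Among the 2000 strongest peaks the difference was 12.7 points for the loop list, or 5.15 against the ins list without ALX4-Flag, and 16.1 for the ins list, where single TWIST1(WT) pairs gave 22.0 to 31.5.

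Sites defined in TWIST1(WT) alone were then looked up in the NEUROG2 lists. TWIST1(WT) gained 5537 sites with ALX4-Flag, present in all 3 lists with and none without, and 108 of these held the composite motif. TWIST1(NEUROG2loop) had a peak at 20.2% of the 5537 without and 20.5% with ALX4-Flag, a difference of 0.289 percentage points. Peaks at 625 of the sites were found only with and at 609 only without ALX4-Flag. Against the ins list without ALX4-Flag the loop difference was 10.0 points, so its value turns on the list that stood apart. TWIST1(NEUROG2ins) had a peak at 10.46% without and 27.7% with ALX4-Flag, a difference of 17.2 points, with 1201 sites only with and 246 only without.

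At the 108 composite-motif sites, TWIST1(NEUROG2loop) had 9 peaks without and 10 with ALX4-Flag, of which 5 were shared. TWIST1(NEUROG2ins) had 2 without and 36 with it. With ALX4-Flag the shares were 9.26% (95% interval 5.11% to 16.2%) and 33.3% (25.2% to 42.7%). The same 108 sites were looked up in 1 list per construct, of 40743 and 46682 peaks. The difference between the constructs was not tested, and the intervals cover counting error only. Of the 1508 sites that TWIST1(WT) lost, the loop construct had 61.7% without and 68.7% with ALX4-Flag, and the ins construct 75.8% and 65.8%. Sites in all 6 TWIST1(WT) lists, 6434 in number, had a loop peak in 85.8% and 94.4% and an ins peak in 92.9% and 97.0%. Of the 1508 sites that TWIST1(WT) lost, 800 (53.0%) had a peak in both NEUROG2 lists with ALX4-Flag.

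**Figure D5:**
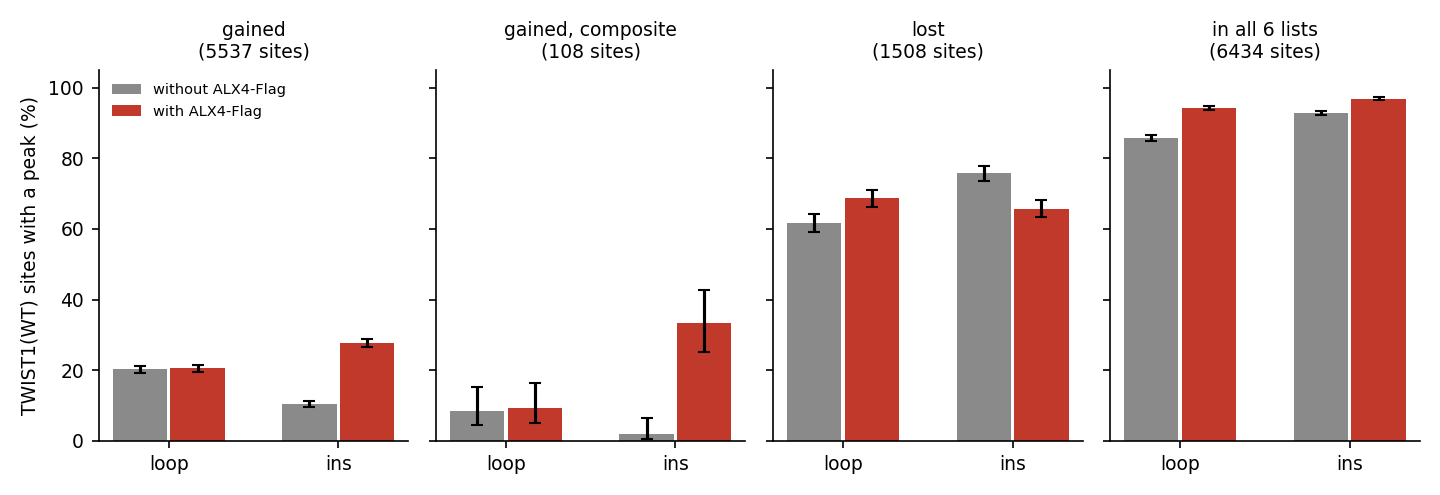
Percentage of TWIST1(WT) sites with a peak in each NEUROG2 list, grey without and red with ALX4-Flag, bars with Wilson 95% intervals; sites gained or lost by all 3 TWIST1(WT) lists, or in all 6. At the 108 gained composite-motif sites, TWIST1(NEUROG2ins) has 33.3% with ALX4-Flag and TWIST1(NEUROG2loop) 9.26%.

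Sites gained in both NEUROG2 constructs numbered 3761. The composite motif was in 18 (0.479%), a homeodomain site in 12.3% and a double E-box in 1.52%, and 30.2% lay within 1000 bp of a transcription start. Lost from both were 4034, with 3, 6.79%, 0.322% and 5.45%. The full lists with ALX4-Flag had 27.4% (loop) and 28.1% (ins) of peaks at starts, near the share of sites gained in both. In all 4 NEUROG2 lists were 16900 sites, of which 53.7% were in all 3 TWIST1(WT) lists without and 44.7% in all 3 with ALX4-Flag. Of the sites gained in both, 796 were in all 3 TWIST1(WT) lists with ALX4-Flag, 292 were among the sites TWIST1(WT) gained, and 580 were in no TWIST1(WT) list.

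Of these 18 sites, 15 also overlapped a composite-motif peak of TWIST1(NEUROG2ins), and the 10 of them with the highest fold enrichment in the loop list were chosen, of which 9 are described here by their nearest protein-coding gene. Fold enrichments are the authors' values per peak and ranked sites only within a list. Read depth is not known from a list, so values of different lists printed side by side do not measure a difference in binding. LGI1 encodes a secreted synaptic protein, and its site (chr10:93815858-93816627, intergenic, 58193 bp downstream of the start) had 14.6 in TWIST1(NEUROG2loop) and 18.1 in TWIST1(NEUROG2ins) with ALX4-Flag. In TWIST1(WT) the LGI1 site had 5.68, 7.50 and 17.3 without and 20.4, 30.0 and 54.2 with ALX4-Flag, a peak in all 6 lists. RAI14 encodes an actin-binding ankyrin-repeat protein, and its site (chr5:34603952-34604883, intergenic, 52102 bp upstream) had 10.1 and 5.54. In TWIST1(WT) it was in no list without and in all 3 with ALX4-Flag (3.34, 5.36 and 5.94). RAI14 was the only one of the 10 outside the hCNCC reference.

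The SV2B site, in an intron of this synaptic vesicle glycoprotein gene (chr15:91247410-91247962), had 8.61 and 15.8 in the constructs with ALX4-Flag. HOOK1 encodes a microtubule-linked adaptor, and its site, in an intron of FGGY, had 8.49 and 18.0. PENK, the enkephalin precursor, had 6.33 and 5.50 at a site 158355 bp upstream. SEMA3E, an axon guidance ligand, had 6.14 and 10.7 at an intronic site. All 4 had a peak in every TWIST1(WT) list with ALX4-Flag, with 8.44 to 34.6, and in 1 to 3 of those without.

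RGS10, a regulator of G protein signalling, had 6.10 and 5.62 at a site in an intron of GRK5. CLK1, a splicing kinase, had 5.95 and 7.92 at a site 2492 bp upstream, where TWIST1(WT) with ALX4-Flag had 26.2, 55.8 and 55.0. PIP4K2B, a phosphoinositide kinase, had 5.37 and 8.39 at an intronic site. At the PIP4K2B site TWIST1(WT) had 3.43, 5.58 and 6.30 without and 24.3, 25.7 and 30.4 with ALX4-Flag.

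Lost from both constructs, the 5 sites with the highest fold enrichment in the loop list without ALX4-Flag lay nearest CDC42EP3, ZEB1, TRIB2, TNC and NR4A3. Their values were 9.90 to 10.3 in TWIST1(NEUROG2loop) and 3.60 to 6.10 in TWIST1(NEUROG2ins), and none held the composite motif. ZEB1 encodes a repressor of epithelial genes, and its site, 76038 bp upstream, had a peak in all 6 TWIST1(WT) lists (4.63 to 18.5). TNC, the matrix protein tenascin C, had a peak at its site in 1 TWIST1(WT) list (5.12). NR4A3, an orphan nuclear receptor, had 3 peaks without ALX4-Flag in TWIST1(WT) and none with it.

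Both constructs with ALX4-Flag shared 1253 sites that were in no TWIST1(WT) list. Those with the highest loop values lay nearest EVI5, ACKR3, AGTPBP1, NAB1 and NMNAT2, with 16.1 to 18.6 in TWIST1(NEUROG2loop) and 5.21 to 9.97 in TWIST1(NEUROG2ins). ACKR3 is an atypical receptor for the chemokine CXCL12, and NMNAT2 makes NAD in axons. All 5 were also in the ins list without ALX4-Flag, and the first 4 in the loop list without it, so they were not gained in both. E-boxes of the 4 words were in 4 of these sites and a homeodomain site in 1, that of NAB1.

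Of the 108 composite-motif sites that TWIST1(WT) gained, 67 had no peak in either NEUROG2 construct with ALX4-Flag. The strongest in TWIST1(WT) replicate 2 lay nearest MAP3K7, BACH1, SDK1, HEY1 and C6orf226. MAP3K7 encodes a kinase of TGF-beta signalling, and its site (chr6:91183681-91184286, 596954 bp upstream) had 9.73, 22.3 and 14.3 with ALX4-Flag. The same MAP3K7 site had 3.87 in TWIST1(NEUROG2loop) without ALX4-Flag and no peak in the other 3 NEUROG2 lists. BACH1, a heme-regulated repressor, had 7.46, 21.3 and 8.73 at a site 874 bp upstream, and SDK1, a cell adhesion protein, 13.1, 21.1 and 20.1. HEY1, a Notch target, had 5.83, 20.6 and 16.2. The BACH1, SDK1, HEY1 and C6orf226 sites had no peak in any NEUROG2 list.

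Genes were assigned to sites by the nearest transcription start, over 19663 protein-coding genes. A site gained in both constructs was nearest to 15.7% of all these genes, and a site lost from both to 14.3%. Of 32 mesenchyme and craniofacial factors, 10 had a site gained in both and 13 a site lost from both. For 34 proneural and Notch genes these counts were 7 and 9, for 7 E-proteins and ID inhibitors 2 and 2, and for 15 EMT and adhesion genes 4 and 7. For 19 collagen and matrix genes they were 4 and 7, and for 27 FGF, BMP, WNT and hedgehog genes 14 and 15. By single construct, a gained site was nearest to 42.8% of all genes for loop and 48% for ins, and a lost one to 36.9% and 40.7%. Of the 27 signalling genes 23 and 26 had a gained and 23 and 25 a lost site, and of the 32 mesenchyme genes 20 and 23 a gained and 24 and 24 a lost one. Sites lost by TWIST1(WT) were nearest to 6.59% of all genes, 7 signalling and 5 mesenchyme genes, and those it gained to 17.6%, 15 and 17. Median sites per gene in the loop list with ALX4-Flag were 7 in the signalling list and 3 in the mesenchyme list, against 1 over all genes. The signalling list thus had more sites per gene in general, and the part of this in its counts was not tested.

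Among members of these lists, COL1A2, a fibrillar collagen chain, had 3 sites gained in both, with 3 sites in TWIST1(NEUROG2loop) without and 7 with ALX4-Flag, and 2 and 10 in TWIST1(NEUROG2ins). The Wnt receptor gene FZD1 had 2 sites gained in both, with 2 and 6 sites in the loop lists and 7 and 9 in the ins lists, while TWIST1(WT) gained 9. GAS1 and TFAP2A each had 3 gained in both, with fewer loop sites with ALX4-Flag. GAS1 had 20 and 16 sites in the loop lists and 12 and 14 in the ins lists, and TFAP2A 35 and 23, and 22 and 24. The BMP receptor gene BMPR1B had 4 gained in both and 3 lost from both, and the adhesion gene CDH2 5 and 4. TCF4, an E-protein that dimerises with TWIST1, had 5 lost from both and none gained in both, as did the hedgehog effector GLI2. Without ALX4-Flag, TCF4 had 37 (loop) and 24 (ins) sites, and GLI2 27 and 28. By single construct, TCF4 had 2 (loop) and 12 (ins) sites gained and 23 and 14 lost. GLI2 had 6 and 7 gained and 17 and 16 lost. TBX18, a mesenchymal T-box factor, had 34 sites in the loop list without and 16 with ALX4-Flag, and 17 and 17 in the ins lists. The 34 sites are from the list that stood apart, so the TBX18 loop difference turns on that list.

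A composite-motif site gained by TWIST1(NEUROG2loop) was nearest to 0.178% of all genes, and to none of the 134 genes in these lists. One gained in both constructs was nearest to 0.0915% of all genes, again none of the 134. One gained by TWIST1(NEUROG2ins) was nearest to 0.427% of all genes and to 2 listed genes, SOX9 and RUNX2, transcription factors of cartilage and bone. TFAP2A, a neural crest factor, had a composite-motif peak in TWIST1(NEUROG2ins) with ALX4-Flag that was not gained.

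Lists of 6 other loop constructs, named for NEUROD1, HAND2 and TAL1 as loop or ins forms, had composite-motif shares of 0.101% to 0.355% with and 0.0340% to 0.0720% without ALX4-Flag. Their differences ran from 0.0585 to 0.283 percentage points, with a median of 0.189. TWIST1(NEUROG2loop), at 0.0832, was above only TAL1loop, and TWIST1(NEUROG2ins), at 0.228, was below both HAND2 forms. Differences in homeodomain-site share ran from 1.195 to 2.80 points in the 6, where TWIST1(NEUROG2ins) had 3.57. TWIST1(NEUROG2loop) had 0.196 with its own list without ALX4-Flag and 2.15, inside that range, with the ins list. The double E-box share was higher with ALX4-Flag in 3 of the 6, with differences of -0.218 to 0.0918 points. With ALX4-Flag it was 0.483% to 0.938% in the 6, above the 3 TWIST1(WT) lists as in the NEUROG2 constructs. At the 108 composite-motif sites gained by TWIST1(WT), the ins forms of HAND2, TAL1 and NEUROD1 had a peak at 35.2%, 24.1% and 9.26% with ALX4-Flag, and their loop forms at 14.8%, 9.26% and 1.85%. Each of these constructs had 1 list per condition, and the differences between them were not tested.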

How the data were processed

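ChIP-seq with a V5 antibody was described from peak lists, 1 per library, with no pooling of replicates. Per the submitters' processing notes, Bowtie2 2.4.1, SAMtools 1.10, MACS2 2.2.7.1 and deepTools 3.5.0 were used, and per the labels the files are in hg38. For the peak calls, the control and threshold used were not given in the sources used here. The authors' deposited lists hold, in standard narrowPeak column order without a header, a fold enrichment (a ratio) and −log10 p and q values per peak, which served to rank or filter the peaks of 1 list at a time. Repeated intervals were reduced to the summit with the highest −log10 p. Motifs were searched within 100 bp of the summit, and in flank windows of the same width 1000 bp to either side. Overlap was at least 1 bp, and strongest peaks were those with the highest −log10 q. Genes came from GENCODE 44. Intervals are Wilson, or Newcombe for differences, at 95%, and cover counting error only. TWIST1(WT) lists were compared by exact permutation tests, whose p-values measure the spread between these 3 samples a group, which may be technical, with scipy 1.17.1, pandas 2.3.3 and numpy 2.4.6. Overlap and motif searches were checked on simulated data and against bedtools 2.31.1. Sites named were the 10 strongest composite-motif sites gained in both constructs, the 5 strongest lost from both, the 5 strongest in both with ALX4-Flag and no TWIST1(WT) list, and the 5 strongest composite-motif sites that TWIST1(WT) gained and neither construct had. Members and lists were chosen with earlier results of these data known. Alternatives tried were the 10000 or 2000 strongest peaks, a −log10 q of at least 5, windows of 50 bp to either side, any E-box CANNTG, a 50% reciprocal overlap, leaving out peaks of cells given pUC19, leaving out each replicate, and a replicate block. Input libraries were not analysed here, and 1 of the sites chosen is not reported here.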

Additional observations from a re-analysis of the deposited data

Results flagged for a closer look

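In 3 features the lists with and without ALX4-Flag of both NEUROG2 constructs differed in the direction opposite to every pair of TWIST1(WT) lists; the difference between constructs was not tested, since each NEUROG2 construct had 1 list per condition. The double E-box share was higher with ALX4-Flag by 0.490 percentage points in TWIST1(NEUROG2loop) and 0.121 in TWIST1(NEUROG2ins), where pairs of TWIST1(WT) lists gave -0.946 to -0.628. Among the 10000 strongest peaks the differences were 0.770 and 0.280 points, and among the 2000 strongest 1.7 and 0.6, where TWIST1(WT) gave -1.56 to -1.28 and -4.25 to -3.35. The share with an E-box of the 4 words was higher by 7.01 points (loop) and 0.441 (ins, 95% interval -0.196 to 1.08), and among the 2000 strongest peaks by 11.8 and 0.6, where TWIST1(WT) gave -10.4 to -0.590 and -11.7 to -6.2. The promoter share was higher by 8.21 points (loop) and 4.71 (ins), where TWIST1(WT) gave -12.2 to -3.14. The loop values rest on the list without ALX4-Flag that stood apart. Against the ins list without ALX4-Flag they were 0.266 points for the double E-box (0.51 and 1.25 among the 10000 and 2000 strongest peaks), 2.11 for the E-box (3.0 among the 2000 strongest) and 4.03 for the promoter share. For ins, the intervals of the double E-box differences among the 10000 and 2000 strongest peaks include 0 (-0.0336 to 0.596 and -0.396 to 1.61), as does that of the E-box among the 2000 strongest (-2.17 to 3.37). The promoter share was also higher with ALX4-Flag in each of the 6 other loop constructs, from 37.45% against 27.45% in HAND2loop to 30.12% against 29.38% in TAL1loop. Their double E-box share was higher in 3 of the 6. Their E-box share went both ways (HAND2loop 52.1% against 49.4%, HAND2ins 51.3% against 52.6%).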

How the results depend on the processing

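Each alternative run gave a higher composite-motif share and a higher hCNCC overlap with ALX4-Flag in both NEUROG2 constructs, but sizes moved. For TWIST1(NEUROG2loop) the composite difference in percentage points was 0.160 among the 10000 strongest peaks, 0.250 among the 2000 strongest (95% interval -0.0338 to 0.605, which includes 0), 0.0390 within 50 bp of the summit and 0.166 with any E-box; for TWIST1(NEUROG2ins) these were 0.32, 0.6, 0.144 and 0.377. Composite shares of gained sites were, in the same order, 0.317%, 0.350%, 0.108% and 0.469% (loop) and 0.641%, 1.06%, 0.257% and 0.775% (ins). The hCNCC difference was 9.14 and 12.7 points (loop) and 9.14 and 16.1 (ins) among the 10000 and 2000 strongest, 3.02 (loop) and 1.96 (ins) with 50% reciprocal overlap, 3.74 for ins at a −log10 q of at least 5, and 3.11 for loop against the ins list without ALX4-Flag. Peaks shared by the constructs came to 59.5%, 53.55%, 65.96% and 55.3% with the 10000 strongest, the 2000 strongest, the −log10 q filter and reciprocal overlap. At sites gained by TWIST1(WT), the ins difference was 9.53 points among the 10000 strongest. The loop difference there was 4.615 with the −log10 q filter and 10.04 against the ins list without ALX4-Flag. Leaving out each TWIST1(WT) replicate in turn gave -1.99 to 0.799 (loop), negative without replicate 1 and without replicate 2 (-0.628), and 13.9 to 15.3 (ins). Leaving out 1 list moved the TWIST1(WT) composite difference between 0.636 and 0.766 points and its hCNCC difference between 3.83 and 8.57.

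Only replicates 2 and 3 of TWIST1(WT) carry a number in the labels, so the replicate block could use 2 pairs, whose smallest p is 0.5. With it the differences were 0.724 (composite) and 4.92 points (hCNCC), each with exact p = 0.5. Whether the numbers pair the samples could not be checked with 2 pairs. No paired analysis was possible for the NEUROG2 constructs because each had 1 list per condition. Depth is not known from a list, so a missing peak does not show that a site was not bound.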

Other observations

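Overlap with AP2a peaks of hCNCC, listed for 2 antibodies, was 21.9% and 23.3% of TWIST1(NEUROG2loop) peaks with and 14.7% and 15.9% without ALX4-Flag. For TWIST1(NEUROG2ins) it was 22.1% and 23.6% with and 17.7% and 19.0% without. TWIST1(WT) had 14.8% to 19.0% with and 18.98% to 27.01% without, over both antibodies.

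Some composite words recurred among the 108 sites that TWIST1(WT) gained. CAGCTGcaacCAATTA and CAGCTGtgacCAATTA were in 5 sites each, CATCTGcattCAATTA in 4 and CAGATGtaatTAATTA in 3. TWIST1(NEUROG2ins) with ALX4-Flag had a peak at 0, 1, 0 and 2 of these, and TWIST1(NEUROG2loop) at 1, 1, 0 and 1.

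The gene nearest to the most sites gained in both constructs was AUTS2, with 10, and 8 were lost from both. It also had many sites in every list, 85 to 95 in the NEUROG2 lists and 44 to 154 in those of TWIST1(WT). Next came NFIB, with 6 gained in both and 2 lost. These genes were chosen after their values were seen.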
